A study of Mus musculus with 12 samples.

Results

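The genes described here make, sense, move and export cholesterol. They are 32 mouse genes chosen by symbol, and 31 of them were listed in all 5 tables of comparisons that the authors deposited, out of 14097 symbols listed in every table and 16399 listed in any. Hmgcs1 was not analysed here. By role, 17 listed genes catalyse synthesis (7 up to the isoprenoid diphosphates and 10 from squalene to cholesterol), 5 control the SREBP factors, 4 move sterol inside the cell and 5 belong to the LXR and efflux branch. RNA came from MC38 tumours, a mouse colon carcinoma line grown in C57BL/6 albino mice. The tumours were dissociated, and pieces of 40 to 100 µm were kept in collagen (2.8 mg/mL) inside a microfluidic chip for 6 days. Cultures received an antibody against the T cell receptor PD-1 (aPD-1, clone RMP1-14, 10 µg/mL), that antibody with a CD8 antibody (aPD-1+CD8, clone 53-6.7, 10 µg/mL of each), interferon-gamma (IFNg, 100 ng/mL) or a control antibody (IgG, clone 2A3, 10 µg/mL). Each group had 3 samples. No antibody is named for the IFNg cultures, so comparisons with IFNg also differ in the presence of antibody. Whether samples within a group stem from different animals or cultures is not said, so the p-values measure only a spread between samples that may be technical.

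Cells build cholesterol from acetyl-CoA through mevalonate, farnesyl diphosphate, squalene and lanosterol. When sterol in the endoplasmic reticulum is low, SCAP carries SREBP proteins to the Golgi, where they are cleaved and become active. SREBP2 then drives the synthesis genes and the uptake of lipoprotein cholesterol, while INSIG proteins hold the complex back when sterol is plentiful. Oxysterols, made when sterol accumulates, activate the LXR receptors, which drive export through ABCA1 and ABCG1 and the ubiquitin ligase MYLIP, which removes lipoprotein receptors.

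The tables give, for each gene, the authors' DESeq2 log2 fold change with its standard error (SE), an adjusted p and a mean normalized count over both groups, and hold no values of single samples. Adjusted p under 0.05 counted as a change. The deposited fold changes appear shrunken toward 0, most strongly in aPD-1+CD8 v IgG, where the deposited value rose by 0.535 for each unit of the log2 ratio of group levels, against 0.794 to 0.944 in the other comparisons. Levels per group were therefore derived by solving the 5 mean counts for the 4 groups after putting the tables on 1 scale. They have no replicate error. The scales tried differed only for the aPD-1 v IgG table, and moved the levels of the 30 members other than Osbp2 by at most 2.74%. Levels depended more on whether the tables were rescaled at all. In aPD-1+CD8, tables left as deposited gave 31.8 against 46.7 for Hsd17b7 and 295 against 413 for Abca1. Mean counts summed to between 10292941 and 11590748, of which the ribosomal precursor Rn45s took 27.8% to 29.6%. Epithelial markers were near 0: in aPD-1 v IgG the authors' deposited table gave mean counts of 0.152 for Epcam and 1.83 for Cdh1, so the carcinoma label had no support from them. These are bulk samples, in which fewer cells of a type and less RNA per cell cannot be told apart.

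With aPD-1, the members that changed were all higher, while among the other sterol genes described below more fell than rose. Of 31 members tested in aPD-1 v IgG, 13 rose and 0 fell (41.9%), where 18.5% of the 12024 genes tested changed (8.50% higher and 10.0% lower). The 13 were 8 synthesis enzymes (Mvd, Fdps, Sqle, Lss, Cyp51, Nsdhl, Hsd17b7 and Dhcr7), the regulators Srebf1 and Insig1, the sterol carrier Osbp2, the exporter Abca1 and the LXR gene Nr1h2. With the CD8 antibody added, 12 members fell and 0 rose against aPD-1 alone (38.7%), beside 14.8% of 11560 genes tested (7.82% higher and 6.94% lower). Against aPD-1, IFNg cultures had 15 members lower and 0 higher (48.4%), beside 15.5% of 12260 genes tested (8.39% higher and 7.13% lower). These 3 comparisons share the aPD-1 libraries, so they are not independent of each other. Outside them little moved: aPD-1+CD8 v IgG had 0 members changed, where 0.00% of 15304 genes changed, and IFNg v IgG had 1 higher and 1 lower of 30 tested (6.67%), where 4.10% of 11478 did (2.73% higher and 1.38% lower). At an unadjusted p under 0.05, aPD-1+CD8 v IgG had 0 members and 57 genes in all (0.372%, DESeq2). The deposited folds were shrunken most in that comparison, so the absence of calls does not show that nothing moved.

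Part of these counts depended on how the authors' Wald score was read. Across all tested genes of aPD-1 v IgG the score had a robust SD of 1.69, where the test assumes 1 for unchanged genes. Changed genes also widen this SD, so rescaling by it is a stricter reading. Centring the score on its median and dividing by the SD left 3 of the 13 members, Osbp2, Nsdhl and Hsd17b7. It left 523 genes in all. The same step left Osbp2 alone in aPD-1+CD8 v aPD-1 (394 genes in all). In IFNg v aPD-1 it left Mvd, Nsdhl, Osbp2 and Abca1 (552 genes in all). In IFNg v IgG it left Abca1 and ended the call of Npc2 (348 genes in all). The robust SD was 0.715 in aPD-1+CD8 v IgG, under the value of 1.

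**Figure D1:**
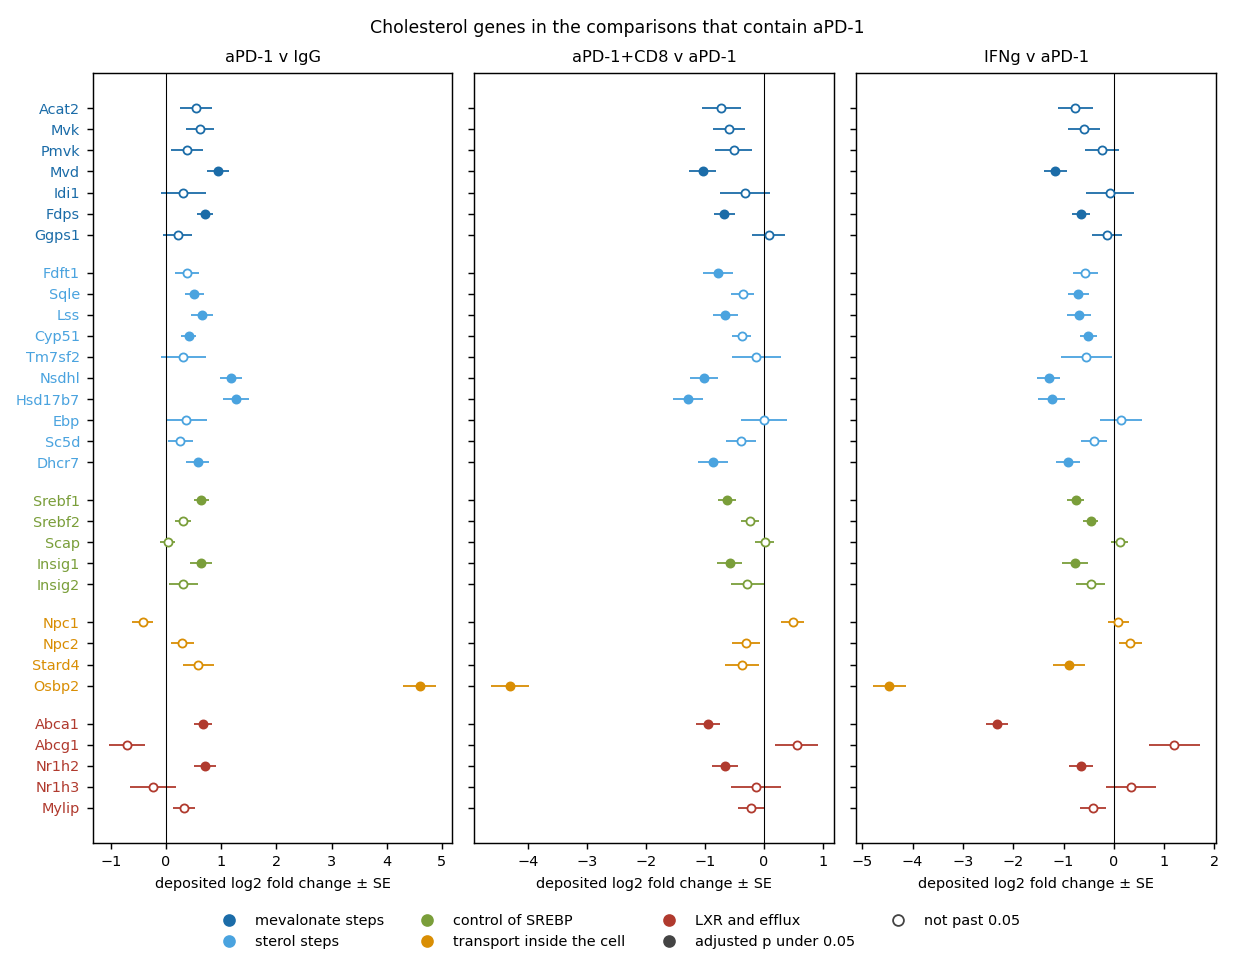
Deposited log2 fold change of the 31 cholesterol genes (horizontal axes, bars ± SE) in the 3 comparisons that hold aPD-1, coloured by role, with filled points for an adjusted p under 0.05. Filled points lie right of 0 in aPD-1 v IgG (13 genes) and left of 0 in aPD-1+CD8 v aPD-1 (12) and IFNg v aPD-1 (15), with Osbp2 farthest out in each.

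Of the 7 enzymes of the mevalonate steps, Mvd and Fdps rose with aPD-1. Mvd, the decarboxylase that makes isopentenyl diphosphate, had derived levels of 190.9 normalized counts in aPD-1, 87.9 in aPD-1+CD8, 81.7 in IFNg and 94.2 in IgG cultures. The aPD-1 level stood apart from the other groups, which lay close together. In the authors' deposited tables Mvd was higher by 0.94 ± 0.20 in aPD-1 v IgG (adjusted p = 5.91e-05) and at -1.04 ± 0.22 in aPD-1+CD8 v aPD-1 (adjusted p = 8.43e-05). In IFNg v aPD-1 it stood at -1.17 ± 0.23 (adjusted p = 7.54e-06) by the authors' deposited table. Fdps joins isoprene units into farnesyl diphosphate, from which both sterols and protein prenyl groups are made. Its levels were 1421 in aPD-1, 877 in aPD-1+CD8, 893 in IFNg and 853 in IgG cultures. It had the smaller fold of the pair, 0.70 ± 0.14 in aPD-1 v IgG (adjusted p = 1.84e-05) in the authors' deposited table, and fell in both other comparisons with aPD-1, by 0.67 ± 0.17 with the CD8 antibody (adjusted p = 0.00144) and by 0.65 ± 0.17 with IFNg (adjusted p = 0.00175).

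The other mevalonate genes passed the test in none of the 5 comparisons. Mvk, mevalonate kinase, came nearest, with levels of 81.9 in aPD-1, 51.5 in aPD-1+CD8, 51.5 in IFNg and 50.1 in IgG cultures and an adjusted p of 0.0698 in aPD-1 v IgG in the authors' deposited table (0.62 ± 0.25). Acat2, the thiolase that starts the pathway, was at 0.55 ± 0.29 there (adjusted p = 0.204), and Pmvk, the second kinase, at 0.38 ± 0.29 (adjusted p = 0.428) in the authors' deposited table. Acat2 has a close copy in the mouse genome, Acat3, with which reads could be shared. Idi1, the isomerase, was measured thinly, at 11.1 normalized counts in aPD-1 and 7.90 in IgG cultures. Ggps1 makes geranylgeranyl diphosphate for protein prenylation and so leaves the sterol route. It had the smallest difference of the 7 in aPD-1 v IgG, 0.21 ± 0.26 in the authors' deposited table, and its highest level in aPD-1+CD8 cultures (73.4) rather than aPD-1 (68.9). Its exons overlap Arid4b on the opposite strand in a mouse annotation of a later build, and whether counting used strand is not stated.

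Of the 10 sterol-step enzymes, 6 rose with aPD-1 and 0 fell. Hsd17b7 and Nsdhl act in removing the methyl groups at carbon 4 of the sterol ring. Of the 17 listed synthesis genes they had the largest folds in aPD-1 v IgG. Msmo1, an enzyme of the same step, was not among the members and was called in no comparison. Its derived levels were 326 normalized counts in aPD-1, 311 in aPD-1+CD8, 265 in IFNg and 296 in IgG cultures. Hsd17b7 had derived levels of 126 normalized counts in aPD-1, 46.7 in aPD-1+CD8, 50.2 in IFNg and 47.1 in IgG cultures, with aPD-1 alone high. In the authors' deposited tables it was at 1.26 ± 0.24 in aPD-1 v IgG (adjusted p = 2.18e-06), -1.28 ± 0.26 in aPD-1+CD8 v aPD-1 (adjusted p = 2.06e-05) and -1.24 ± 0.26 in IFNg v aPD-1 (adjusted p = 5.38e-05). Nsdhl is X-linked. Its levels were 263 in aPD-1, 123 in aPD-1+CD8, 103 in IFNg and 108 in IgG cultures. It was higher by 1.18 ± 0.20 in aPD-1 v IgG (adjusted p = 1.68e-07) in the authors' deposited table. Nsdhl also fell by 1.01 ± 0.24 with the CD8 antibody (adjusted p = 0.000411) and by 1.30 ± 0.22 in IFNg v aPD-1 (adjusted p = 2.41e-07) in the authors' deposited tables.

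The enzymes between squalene and lanosterol rose by smaller amounts. Sqle, squalene epoxidase, is a rate-limiting step, and its levels were 288 in aPD-1, 221 in aPD-1+CD8, 173 in IFNg and 196 in IgG cultures. It was the synthesis gene called in aPD-1 v IgG that stayed nearest to aPD-1 when the CD8 antibody was added, together with Cyp51, the lanosterol demethylase. For Sqle the authors' deposited tables gave 0.51 ± 0.18 in aPD-1 v IgG (adjusted p = 0.0232), -0.36 ± 0.20 in aPD-1+CD8 v aPD-1 (adjusted p = 0.238) and -0.71 ± 0.21 in IFNg v aPD-1 (adjusted p = 0.00869). For Cyp51 they were 0.41 ± 0.14 (adjusted p = 0.0192), -0.37 ± 0.16 (adjusted p = 0.112) and -0.51 ± 0.17 (adjusted p = 0.0217), in the same order in the authors' deposited tables. Cyp51 exons overlap those of Akap9 on the opposite strand. Lss closes squalene epoxide into lanosterol, and had 245 normalized counts in aPD-1, 151 in aPD-1+CD8, 147 in IFNg and 149 in IgG cultures. Its fold was 0.65 ± 0.19 in aPD-1 v IgG (adjusted p = 0.00726) in the authors' deposited table, and it fell with the CD8 antibody and in IFNg v aPD-1 (adjusted p = 0.019 and 0.0249).

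Fdft1, squalene synthase, commits farnesyl diphosphate to sterol. It missed the threshold in aPD-1 v IgG (0.37 ± 0.22, adjusted p = 0.251) but fell with the CD8 antibody, by 0.77 ± 0.25 (adjusted p = 0.0211), in the authors' deposited tables. Its level in aPD-1+CD8 cultures, 64.3, was the lowest of the groups, below 77.3 in IFNg and 87.4 in IgG cultures, with 117 in aPD-1. Fdft1 overlaps Ctsb on the opposite strand. Dhcr7, the reductase of the last step, rose by 0.58 ± 0.21 in aPD-1 v IgG (adjusted p = 0.0336) in the authors' deposited table. It fell by 0.87 ± 0.25 with the CD8 antibody (adjusted p = 0.00618) and by 0.91 ± 0.24 in IFNg v aPD-1 (adjusted p = 0.00167) in the authors' deposited tables. Dhcr7 levels were 165 in aPD-1, 85.3 in aPD-1+CD8, 84.3 in IFNg and 105 in IgG cultures, so by derived level both lay under the control, where neither comparison with IgG was called. The sterol reductase Tm7sf2, the isomerase Ebp and the desaturase Sc5d passed in no comparison. Tm7sf2 had only 2.23 to 5.50 normalized counts and overlaps Vps51 on its own strand, and Ebp, at 12.9 in IgG cultures, was lower there than in the other groups (18.7 to 21.7).

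The promoters of synthesis enzymes that moved together are shown next to that of Abca1, the exporter that rose in the same cultures, to set a motif of the synthesis genes beside an efflux gene. The RefSeq windows (GRCm38.p6) run from 250 bases before to 50 after each start, and 25 of the 31 members had an entry. They are Hsd17b7 at chr1:169969156-169969455 (minus strand), Mvd at chr8:122443373-122443672 (minus), Lss at chr10:76531355-76531654 (plus) and Abca1 at chr4:53159846-53160145 (minus). Each is read 5′ to 3′ on the gene's strand, and capitals mark CCAAT on either strand, the box that binds the factor NF-Y, a known partner of SREBP.
Hsd17b7: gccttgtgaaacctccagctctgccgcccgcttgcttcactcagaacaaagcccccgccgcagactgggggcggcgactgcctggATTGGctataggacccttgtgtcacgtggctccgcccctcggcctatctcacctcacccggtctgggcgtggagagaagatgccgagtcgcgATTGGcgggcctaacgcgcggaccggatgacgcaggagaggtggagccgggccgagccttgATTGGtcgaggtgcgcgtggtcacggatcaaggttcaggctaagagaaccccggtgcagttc
Mvd: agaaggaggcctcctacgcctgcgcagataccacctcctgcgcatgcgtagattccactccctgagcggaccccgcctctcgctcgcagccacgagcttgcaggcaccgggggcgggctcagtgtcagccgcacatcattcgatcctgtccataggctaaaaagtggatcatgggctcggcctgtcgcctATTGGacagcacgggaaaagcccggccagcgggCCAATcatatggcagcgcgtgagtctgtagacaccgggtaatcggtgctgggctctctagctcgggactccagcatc
Lss: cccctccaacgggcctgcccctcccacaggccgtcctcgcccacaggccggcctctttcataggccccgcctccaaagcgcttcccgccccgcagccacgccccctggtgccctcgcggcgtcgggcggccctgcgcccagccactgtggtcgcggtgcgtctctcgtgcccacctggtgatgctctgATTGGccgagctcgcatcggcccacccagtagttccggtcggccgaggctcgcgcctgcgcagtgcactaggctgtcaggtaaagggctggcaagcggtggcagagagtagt
Abca1: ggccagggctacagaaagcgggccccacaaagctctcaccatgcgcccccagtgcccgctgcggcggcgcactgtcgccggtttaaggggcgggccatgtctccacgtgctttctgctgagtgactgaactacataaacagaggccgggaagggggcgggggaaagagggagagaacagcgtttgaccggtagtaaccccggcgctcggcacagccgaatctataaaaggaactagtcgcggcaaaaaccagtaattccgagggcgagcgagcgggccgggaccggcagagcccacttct
The box appears at 3 places in Hsd17b7, 2 in Mvd, 1 in Lss and 0 in Abca1. Among members with a window it was found in 13 of 14 synthesis genes (92.9%), in 1 of 4 LXR and efflux genes (Mylip) and in 5 of 7 others, against 41.1% of all 27025 genes with a window. Where a gene has several windows, a match in any of them counted. Of the 13, 7 were not called in aPD-1 v IgG (Mvk, Pmvk, Idi1, Ggps1, Tm7sf2, Ebp and Sc5d). A core of the sterol regulatory element, TCACNCCAC, was found in 0 of the 25 members, where 1.44% of all genes held it. The receptor site AGGTCA, of which LXR elements hold a spaced pair, was found in Dhcr7 and Insig1, against 18.1% of all genes, and the spaced pair, the DR4 element, in 0 members and 0.0148% of genes. All searches covered both strands, every hit of the pair is also a hit of the single site, and a match is a description of letters only. The pair was searched for only as exact copies of the single site, and pairs with other letters were not searched for. The 0 members therefore do not show that Abca1, or any other member, lacks a DR4 element.

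Among the genes that control SREBP, Srebf1 and Insig1 rose with aPD-1. Srebf1 encodes the SREBP that favours fatty acid genes, and is itself an LXR and SREBP target. Its levels were 1231 normalized counts in aPD-1, 788 in aPD-1+CD8, 716 in IFNg and 770.2 in IgG cultures. In the authors' deposited tables Srebf1 was at 0.64 ± 0.14 in aPD-1 v IgG (adjusted p = 8.99e-05), -0.62 ± 0.16 in aPD-1+CD8 v aPD-1 (adjusted p = 0.0011) and -0.76 ± 0.17 in IFNg v aPD-1 (adjusted p = 0.000241). Srebf1 exons overlap Rai1 on the opposite strand. Insig1, which retains SCAP in the endoplasmic reticulum and is an SREBP target, had 182 in aPD-1, 118 in aPD-1+CD8, 102 in IFNg and 114 in IgG cultures. Its fold in aPD-1 v IgG was 0.63 ± 0.20 (adjusted p = 0.0111) in the authors' deposited table. The call with the CD8 antibody lay close to the threshold, at -0.58 ± 0.22 (adjusted p = 0.0484) in the authors' deposited table, and was lost when genes with low counts were kept in the adjustment.

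Srebf2 encodes SREBP2, the main driver of the synthesis enzymes. It had 2543 in aPD-1, 2156 in aPD-1+CD8, 1841 in IFNg and 2024 in IgG cultures. The authors' deposited tables gave 0.31 ± 0.14 in aPD-1 v IgG (adjusted p = 0.11) and, as its only call, -0.46 ± 0.15 in IFNg v aPD-1 (adjusted p = 0.0228). SREBP2 is controlled mainly by cleavage, which these data do not measure. Scap, the escort protein, was nearly level, with 557 in aPD-1, 561 in aPD-1+CD8, 605 in IFNg and 542 in IgG cultures. Its fold of 0.03 ± 0.14 in aPD-1 v IgG was the smallest of the 31 members in the authors' deposited table. Insig2, the INSIG form that is less responsive to SREBP, stood at 0.31 ± 0.26 there (adjusted p = 0.473) in the authors' deposited table.

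Osbp2 set itself apart from all other members. It encodes a protein of the oxysterol-binding family, best known from retina and other specialised tissues. Its derived levels were 238 normalized counts in aPD-1, 6.31 in aPD-1+CD8, 7.15 in IFNg and 4.16 in IgG cultures. Since the low groups are small differences of large numbers, the scales tried gave 5.83 to 7.08 in aPD-1+CD8, 6.67 to 7.92 in IFNg and 3.39 to 4.64 in IgG cultures. Osbp2 was thus high in aPD-1 cultures and low in all other groups. In the authors' deposited table for aPD-1 v IgG its fold was 4.60 ± 0.30 (adjusted p = 4.27e-51), number 2 among increases over the 12024 genes tested. With the CD8 antibody it was at -4.32 ± 0.32 (adjusted p = 7.16e-38) and in IFNg v aPD-1 at -4.46 ± 0.33 (adjusted p = 1.4e-38) in the authors' deposited tables, number 4 among decreases in each. Neither aPD-1+CD8 nor IFNg differed from IgG by the test: the authors' deposited tables gave 0.01 ± 0.05 and 0.13 ± 0.25 there.

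The other transport genes were not called in aPD-1 v IgG. Stard4, a soluble sterol carrier and SREBP2 target, had levels of 68.3 in aPD-1, 50.7 in aPD-1+CD8, 34.3 in IFNg and 42.2 in IgG cultures. It was called in IFNg v aPD-1 alone, at -0.89 ± 0.32 (adjusted p = 0.0374), and was at 0.58 ± 0.28 in aPD-1 v IgG (adjusted p = 0.143) in the authors' deposited tables. Npc1 and Npc2 hand cholesterol out of the lysosome. Npc2 rose with IFNg, by 0.60 ± 0.17 against IgG (adjusted p = 0.0175) in the authors' deposited table, with 251 normalized counts in IFNg and 157 in IgG cultures. It was the only member called higher in IFNg v IgG, and missed a threshold of 0.01. Its partner Npc1 had 155 in aPD-1, 222 in aPD-1+CD8, 166 in IFNg and 209.5 in IgG cultures. It had the lowest level in aPD-1 cultures, but its fold of -0.42 ± 0.19 in aPD-1 v IgG missed the threshold (adjusted p = 0.104) in the authors' deposited table.

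In the efflux branch Abca1 rose with aPD-1 and fell with IFNg, while Abcg1 was not called in any comparison. Abca1 loads cholesterol onto apolipoprotein A-I and is a classic LXR target. Its levels were 832 normalized counts in aPD-1, 413 in aPD-1+CD8, 156 in IFNg and 509 in IgG cultures. Abca1 was thus highest with aPD-1 and lowest with IFNg, the widest spread over groups of any member but Osbp2 and, in its derived levels, Abcg1. In the authors' deposited tables it rose by 0.67 ± 0.16 in aPD-1 v IgG (adjusted p = 0.000644) and was at -0.95 ± 0.20 in aPD-1+CD8 v aPD-1 (adjusted p = 7.72e-05). With IFNg it fell against IgG, at -1.54 ± 0.18 (adjusted p = 6.31e-16), number 4 among the decreases of 11478 genes tested in the authors' deposited table. Against aPD-1 the IFNg fold was -2.32 ± 0.22 (adjusted p = 1.36e-23) in the authors' deposited table. Abca1 was the only member called lower in IFNg v IgG.

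Abcg1, which exports cholesterol to larger lipoprotein particles, passed in no comparison. Its derived levels were 20.8 in aPD-1, 34.5 in aPD-1+CD8, 116 in IFNg and 37.8 in IgG cultures, lowest with aPD-1 and highest with IFNg. The ratio of its IFNg and IgG levels was 3.07, but the authors' deposited table gave 0.38 ± 0.24 for that fold (adjusted p = 0.614). In IFNg v aPD-1 Abcg1 stood at 1.20 ± 0.51 (adjusted p = 0.0925) in the authors' deposited table. How the 3 IFNg samples shared this level was not analysed here. In aPD-1 v IgG it was at -0.71 ± 0.32 (adjusted p = 0.115), the lowest of the 31 members in the authors' deposited table.

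Of the receptors, Nr1h2 (LXR beta) rose with aPD-1 and Nr1h3 (LXR alpha) was barely measured. Nr1h2 had 180.1 normalized counts in aPD-1, 110.3 in aPD-1+CD8, 111.5 in IFNg and 106 in IgG cultures. It was higher by 0.70 ± 0.20 in aPD-1 v IgG (adjusted p = 0.00331) and at -0.66 ± 0.22 with the CD8 antibody (adjusted p = 0.0253) in the authors' deposited tables. In IFNg v aPD-1 it fell by 0.65 ± 0.24 (adjusted p = 0.0434) in the authors' deposited table, a call lost when genes with low counts were kept in the adjustment. Nr1h3 lay between 5.83 and 10.1 normalized counts in all 4 groups. Mylip, the LXR-driven ligase for lipoprotein receptors, had 154 in aPD-1, 131 in aPD-1+CD8, 114.5 in IFNg and 120 in IgG cultures and passed in no comparison (0.32 ± 0.20, adjusted p = 0.28 in aPD-1 v IgG, in the authors' deposited table).

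**Figure D2:**
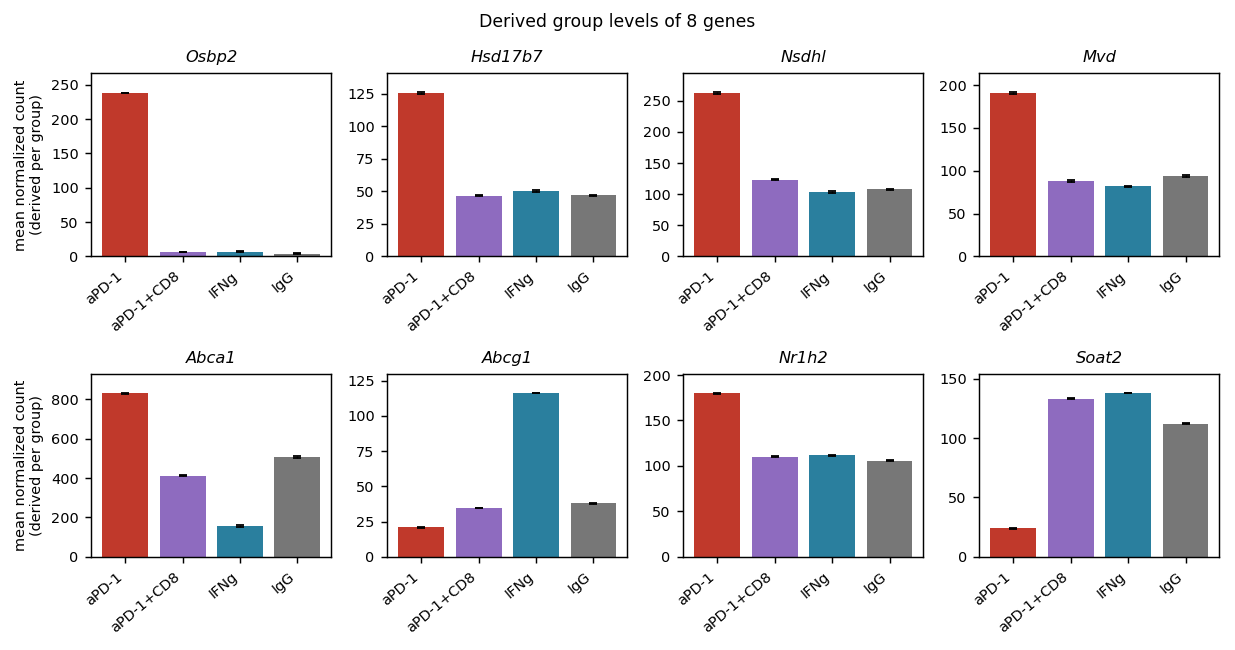
Derived mean normalized counts (vertical axes, starting at 0) in aPD-1, aPD-1+CD8, IFNg and IgG cultures for 7 members and for Soat2, with bars for the range over the scales tried and no replicate error. Osbp2, Hsd17b7, Nsdhl, Mvd and Nr1h2 are highest in aPD-1, Abca1 is lowest in IFNg (156), Abcg1 is highest there (116), and Soat2 is low in aPD-1 alone.

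Synthesis and efflux genes were set side by side, since their drivers answer opposite sterol states. In aPD-1 v IgG the median deposited log2 fold change was 0.51 over the 17 synthesis genes and 0.32 over the 5 efflux genes, against 0.01 over all genes tested. All 17 synthesis genes lay above 0, while the efflux genes split, with 3 above and 2 below. In aPD-1+CD8 v aPD-1 the medians were -0.60 for synthesis and -0.21 for efflux, and in IFNg v aPD-1 they were -0.59 and -0.41. Against IgG the medians were -0.0029 and -0.032 for aPD-1+CD8, and -0.077 and 0.056 for IFNg. The difference between the classes was not stable. Synthesis exceeded efflux by 0.19 in aPD-1 v IgG, but by -0.056 among members whose mean count reached 100. The folds of Abca1 and Nr1h2 in aPD-1 v IgG, 0.67 and 0.70 in the authors' deposited table, lay within the range of the called synthesis genes. The medians are descriptions, since genes of 1 pathway are not replicates.

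By derived level, aPD-1 cultures were the highest of the groups for 24 of 31 members (77.4%), and for 15 of 17 synthesis genes, all but Ggps1 and Ebp. Over the 5706 genes whose mean count reached 100 in all 5 tables, aPD-1 was highest in 37.4%. The aPD-1 to IgG ratio of the synthesis genes ran from 1.20 (Ggps1) to 2.67 (Hsd17b7), with a median of 1.56. In aPD-1+CD8 cultures the synthesis genes lay near IgG, with a median ratio of 1.01, a range of 0.736 (Fdft1) to 1.45 (Ebp), and 13 of 17 within 1.25-fold. Closeness to IgG was not particular to the synthesis genes, as a larger share of the 5706, 98.7%, lay within 1.25-fold there. The shares differ in count level, since the 5706 all reached a mean count of 100. Fdft1, Ggps1, Tm7sf2 and Ebp, which lay outside 1.25-fold, did not reach it. The table scale was chosen so that median ratios of the groups lie nearest to 1, so a typical ratio near 1 was set by that choice. With the tables taken as on 1 scale, the median log2 ratio of aPD-1+CD8 to IgG over the 5706 was -0.418. In IFNg cultures the median ratio to IgG was 0.957, with 14 of 17 within 1.25-fold, beside 80.3% of the 5706. IFNg had the lowest level of the groups in 8 synthesis genes and in 4 of 5 SREBP control genes, beside 1636 of the 5706. None of these was called in IFNg v IgG, where Tm7sf2, 1 of the 8, had no adjusted p. In the authors' deposited table for aPD-1+CD8 v IgG the members' folds ran from -0.18 ± 0.11 (Abca1) to 0.12 ± 0.11 (Ggps1), every one at a DESeq2 adjusted p of 0.999824. In IFNg v IgG the members nearest to a call after Abca1 and Npc2 were Npc1 (-0.30 ± 0.18, adjusted p = 0.591), Abcg1 and Ebp (0.37 ± 0.28, adjusted p = 0.718) in the authors' deposited table. They were followed by Dhcr7 (-0.27 ± 0.21, adjusted p = 0.737), Scap (0.15 ± 0.14, adjusted p = 0.825) and Srebf2 (-0.13 ± 0.13, adjusted p = 0.839) in the authors' deposited table.

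**Figure D3:**
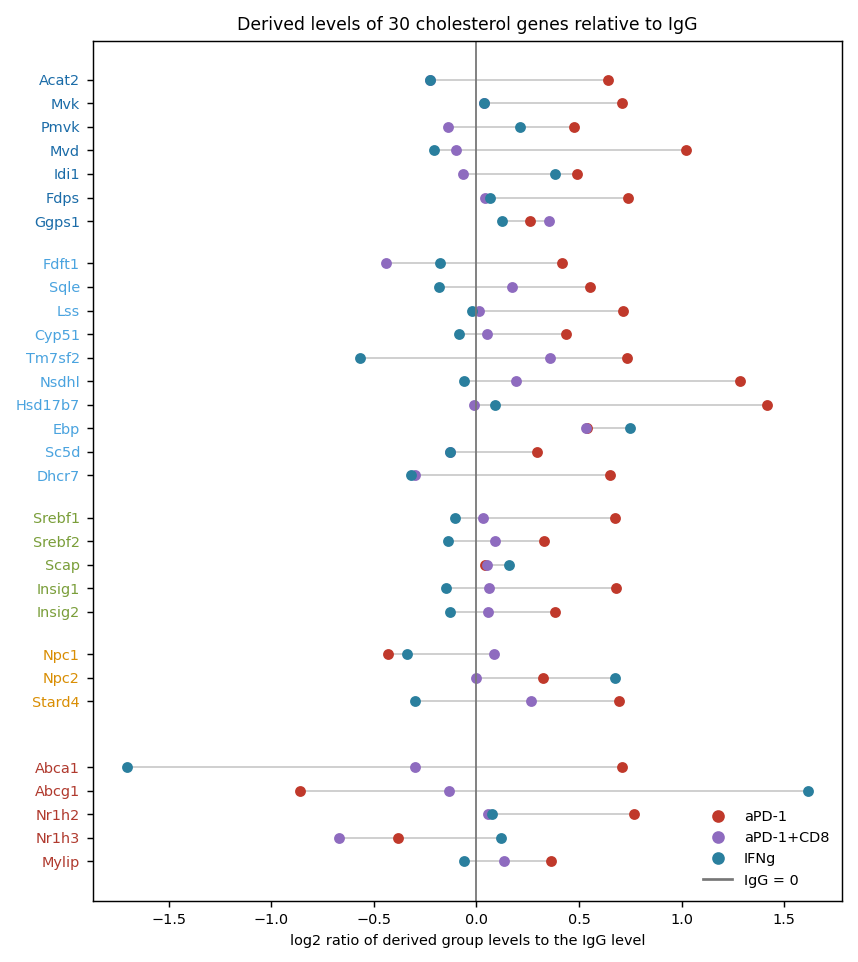
Log2 ratio of the derived level in aPD-1, aPD-1+CD8 and IFNg cultures to the IgG level (horizontal axis, IgG at 0) for 30 members, with Osbp2 left out for its far larger ratio. The aPD-1 points lie farthest right in most rows, while most aPD-1+CD8 and IFNg points lie nearer 0. Those farthest from 0 are Abca1, Abcg1, Ebp, Npc2 and Tm7sf2 with IFNg and Nr1h3, Ebp and Fdft1 with aPD-1+CD8.

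Of the other sterol genes reported here, more fell than rose with aPD-1. The list held 56 genes, mainly of uptake, esterification, lysosomal release, sterol transfer and SREBP turnover, and included the synthesis gene Msmo1. Of these, 54 were in the aPD-1 v IgG table and 48 were tested, of which 2 rose and 14 fell (33.3%, against 18.5% of all genes tested). The 2 were Lrp1, a lipoprotein receptor, and the ligase Rnf145. Lrp1 was at 0.84 ± 0.13 (adjusted p = 8.25e-09) and Rnf145 at 0.68 ± 0.19 (adjusted p = 0.00354) in the authors' deposited table. Soat1, Soat2 and Nceh1, which store or release cholesterol esters, were among those that fell. Soat2, an enzyme that esterifies cholesterol, had 24.2 normalized counts in aPD-1, 133 in aPD-1+CD8, 138 in IFNg and 112 in IgG cultures. It was at -1.96 ± 0.28 in aPD-1 v IgG (adjusted p = 1.18e-10) in the authors' deposited table. Its relative Soat1 was at -0.97 ± 0.14 (adjusted p = 7.3e-10) and the ester hydrolase Nceh1 at -1.10 ± 0.30 (adjusted p = 0.00287) in the authors' deposited table. The lipoprotein receptors Vldlr and Lrp8 also fell, as did lipoprotein lipase, Lpl, and Erlin1, a protein of the endoplasmic reticulum.

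In aPD-1+CD8 v aPD-1, 9 of 46 tested rose and 2 fell (23.9%, against 14.8% of all genes). IFNg v aPD-1 had 8 higher and 4 lower of 49 (24.5%, against 15.5%), and aPD-1+CD8 v IgG had 0 of 52 changed. IFNg v IgG had 0 higher and 4 lower of 47 (8.51%, against 4.10%), namely Vldlr, Osbpl2, Osbpl6 and Erlin1.

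**Figure D4:**
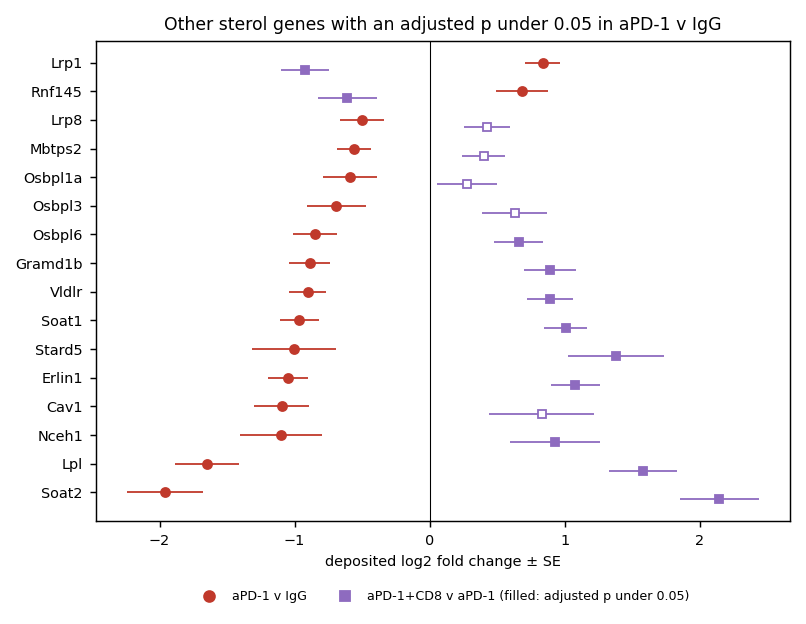
Deposited log2 fold change (horizontal axis, bars ± SE) of the 16 other sterol genes with an adjusted p under 0.05 in aPD-1 v IgG, beside their values in aPD-1+CD8 v aPD-1, where open squares missed 0.05. The genes were picked on the circles and both comparisons hold the aPD-1 libraries, so the mirrored signs are no separate evidence; Soat2 lies at -1.96 and 2.15.

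Genes used as markers of other cell types moved with these results, and their part in them was not tested. Which cells expressed these genes, the tumour cells included, cannot be read from bulk samples. Of 11 fibroblast markers listed in aPD-1 v IgG, 9 were tested, and 5 rose (Col1a1, Col3a1, Dcn, Pdgfra and Fbn1) while 0 fell (55.6%, against 18.5% of all genes). Their summed derived level was 20892 in aPD-1, 5362 in aPD-1+CD8, 7271 in IFNg and 5509 in IgG cultures. Fbn1 alone gave 11487 of the aPD-1 sum and 4408 of the IFNg sum. In IFNg v IgG 2 of 9 fibroblast markers tested rose (Dcn and Acta2) and 3 fell (Col1a1, Col3a1 and Fap). That is 55.6%, against 4.10% of all genes. Macrophages express much Abca1 and Abcg1, and the summed level of 18 macrophage markers was 316 in aPD-1, 409 in aPD-1+CD8, 635 in IFNg and 447 in IgG cultures. Of that IFNg sum, Csf1r alone gave 355, and the authors' deposited table holds no adjusted p for it in IFNg v IgG. In IFNg v IgG 0 of 14 macrophage markers tested rose, and Mrc1 and Mertk fell (14.3%, against 4.10% of all genes). T cell markers were near 0, with a median mean count of 0.661 over 5 listed in aPD-1 v IgG. Lck was the exception, with a derived level of 10.9 in IFNg, 1.74 in aPD-1 and 1.65 in IgG cultures, and was called higher in IFNg v aPD-1. Of 8 replication genes, 7 were called lower and 0 higher in aPD-1 v IgG (87.5%). Of 76 ribosomal protein genes tested, 1 rose and 16 fell (22.4%), beside 18.5% of all genes (8.50% higher and 10.0% lower). Of the 80 listed, 69 lay below 0. Their median log2 fold change over those tested was -0.23, against 0.01 over all genes tested.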

How the data were processed

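RNA was measured by exome-capture sequencing, per the labels' protocols, from 250 ng of total RNA in 12 samples, 3 in each of 4 treatment groups taken from the labels. The authors deposited 5 tables made with DESeq2 on mm9, per the submitters' processing notes. The version of DESeq2, the aligner, the counting program and the annotation are not given in the sources here. By their headers, the authors' deposited tables hold a mean normalized count (the signal after scaling for library size), a log2 fold change (first named group over the other) and its SE, the Wald score, and p-values before and after adjustment. The tables hold 0 columns of single samples, so depth per library is not known and standard errors give the precision.

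From these, members were called at the authors' adjusted p under 0.05 and counted beside all genes tested. Group levels were solved by least squares from the 5 mean counts. As deposited, the tables did not share 1 scale, so levels printed are those with fitted table scales; the scale of the aPD-1 v IgG table is not fixed by the mean counts and was set, by a choice made after seeing the data, so that the median ratios of the groups lie nearest to 1. Python 3.11.15, numpy 2.4.6, pandas 2.3.3, scipy 1.17.1 and matplotlib 3.10.9 were used, and the steps were tested on simulated data. All members are accounted for by role; those with the smallest adjusted p, up to 8 in a comparison, and those called with a log2 fold change of at least 1 are given in full. Genes outside the members were named from lists of other sterol, fatty acid, cell type, replication and ribosomal protein genes, some after their values were seen; a few genes of these lists are not reported here. The members and lists were chosen with earlier results of these data known. Alternatives were another threshold, a minimum fold change, the filter on low counts, an empirical null, the mean for the median, and the scale of the tables. Promoter sequences and names came from RefSeq (GRCm38.p6); no coordinates of mm9 are given.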

Additional observations from a re-analysis of the deposited data

How the results depend on the processing

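Of the counts of members changed, those in aPD-1+CD8 v IgG stayed at 0 under all alternatives run. With a log2 fold change of at least 1 required, members changed numbered 3 in aPD-1 v IgG, 4 in aPD-1+CD8 v aPD-1, 1 in IFNg v IgG and 5 in IFNg v aPD-1. Over all genes that rule left 707, 656, 190 and 860 calls in the same order. The Wald score was also centred on its median and divided by its robust SD (1.69, 1.59, 1.11 and 1.57). Members changed then numbered 3, 1, 1 and 4, and all genes called 523, 394, 348 and 552. At an adjusted p under 0.01, members called numbered 9 in aPD-1 v IgG and 8 in aPD-1+CD8 v aPD-1. They numbered 1 in IFNg v IgG (Abca1) and 9 in IFNg v aPD-1. Over all genes that threshold left 1522, 1099, 321 and 1276 calls in the same order. The difference between synthesis and efflux medians was 0.19 in aPD-1 v IgG; it was -0.056 for mean counts from 100 up and 0.417 with means in place of medians. In aPD-1+CD8 v aPD-1 it was -0.38, and -0.0131 for mean counts from 100 up. In aPD-1+CD8 v IgG it was 0.029, and 0.144 from derived levels. In IFNg v IgG it was -0.13, 0.196 with means, and -0.0127 for mean counts from 100 up. In IFNg v aPD-1 it was -0.19, and -0.0576 for mean counts from 100 up. In aPD-1+CD8 v IgG that setting gave 0.00681. With the tables taken as on 1 scale, 5233 of 5706 genes broke the closure of the mean counts by over 0.1%, against 309 with fitted scales, and the Osbp2 level in aPD-1+CD8 was -10.3 against 6.31. The cause of these differences was not tested beyond what each setting changes by its construction. The other counts and median differences kept their direction. No paired analysis was possible because the tables carry no values of single samples, and leaving out a replicate was not run for the same reason. Low counts limit Tm7sf2, Idi1 and Nr1h3 most.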

Other observations

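Fatty acid synthesis genes, which SREBP1 drives, were counted as a list of 15, of which 14 were in the tables. In aPD-1 v IgG 6 of 14 tested rose and 0 fell (42.9%, against 18.5% of all genes), namely Acss2, Scd1, Scd2, Elovl6, Fads2 and Me1. Acss2, which makes acetyl-CoA from acetate, had derived levels of 1207 normalized counts in aPD-1, 421 in aPD-1+CD8, 433 in IFNg and 470.0 in IgG cultures. It was at 1.25 ± 0.21 in aPD-1 v IgG (DESeq2 adjusted p = 4.48e-08) in the authors' deposited table. The desaturase Scd2 had 7699 in aPD-1, 4665 in aPD-1+CD8, 3325 in IFNg and 4713 in IgG cultures. Fasn and Acaca, which carry out the core of fatty acid synthesis, were not called: the authors' deposited table gave -0.03 ± 0.12 and -0.22 ± 0.14 for aPD-1 v IgG. In aPD-1+CD8 v aPD-1, 4 of 14 fell and 0 rose (28.6%, against 14.8%), and in IFNg v aPD-1, 6 of 14 fell and 0 rose (42.9%, against 15.5%), both against the same aPD-1 libraries. Against IgG, 0 of 14 changed with aPD-1+CD8 and 0 of 13 with IFNg. Me1, malic enzyme, had a derived level of 701 in IFNg and 296 in IgG cultures, and the authors' deposited table holds no adjusted p for it in that comparison.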
